A study of Drosophila melanogaster with 16 samples.

Results

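A set of 11 genes, all of them autosomal, had higher transcript levels in ERK7 1 mutant larvae than in control larvae on both diets. Fasting shifted their means by no more than 1.5 log2 units in either genotype, a limit as wide as the smallest genotype difference allowed. They are 11 of the 10459 genes measured and were chosen by their levels in these same libraries. The level was log2(RPM + 1), in which RPM is the read count of a gene scaled to the effective size of its library. A gene was kept when the mean of the mutants exceeded that of the controls by at least 1.5 log2 units both in fed and in fasted larvae, and when the fasted and fed means of each genotype differed by no more than 1.5. Genotype differences of these 11 genes are therefore given as a description, and calls of the fit across all genes are given for them as counts only.

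RNA of whole larvae of the third instar was sequenced in 16 libraries, 4 for each combination of genotype and food. Mutants carried ERK7 1, a short deletion made with CRISPR/Cas9 that shifts the reading frame of the X-linked gene Erk7 and leaves a severely truncated protein. A single mutant line was used, and controls came from a sister line of that screen in which Erk7 was intact. Both lines had been backcrossed to w1118 and were kept over balancers. Per the labels, eggs were laid for 3 h, first instar larvae went onto standard laboratory food 24 h later, and after a further 48 h they spent the last 6 h either on fresh food (fed) or on agarose in PBS (fasted, called starved in the labels). The methods place the transfer to fasting at a later age than the labels do, so the age of the larvae is not settled. The paper also reports that mutant larvae were heavier than controls of the same age and pupariated earlier, and that mutant males were infertile. Whether developmental stage differed between the genotypes in these libraries was not tested. The methods also state that the larvae were male, and the number of larvae behind a library was not given. Libraries held 16482553 to 20601418 reads on the measured genes, so that 1 read was worth 0.0472 to 0.0642 RPM.

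ERK7 is an atypical MAP kinase that needs no upstream kinase for its activation. Larval testes of Drosophila melanogaster already hold spermatocytes, which transcribe a large set of genes used nowhere else, many of them for the later building of the sperm tail and the compact sperm head. Whole larvae also contribute RNA from gut, fat body, muscle, epidermis and blood cells, in which digestive enzymes, detoxifying enzymes and secreted immune proteins are made. Since whole animals were sequenced, more cells of a type cannot be told apart from more RNA per cell.

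All 11 genes were annotated as protein coding. They lay on chromosome arms 2L (2 genes), 2R (2), 3L (4) and 3R (3), and no 3 of them started within 20 kb of each other. Roles known or predicted for them fell into different classes. CG13164, now named salto, is needed for the shaping of the sperm head. CG30288 encodes a predicted trypsin-like serine protease, CG32379 a predicted metallocarboxypeptidase, CG3397 a predicted aldo-keto reductase and CG10553 a member of the family of ecdysteroid kinase-like proteins. PGRP-SD is a secreted peptidoglycan recognition protein of the innate immune response. None of the 11 belonged to the 14 families counted by symbol, which included 70 cytochrome P450 genes, 29 glutathione S-transferases and 90 cuticle proteins. Most of the 11 were weakly expressed, with a mean over all libraries between 3.61 RPM for CG32379 and 18.8 RPM for CG3213. The exception was CG43085 at 189 RPM, a mean raised by its fasted mutants. Its group means were 16.9 RPM in fed controls, 71.3 RPM in fed mutants, 29.7 RPM in fasted controls and 639 RPM in fasted mutants.

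**Figure D1:**
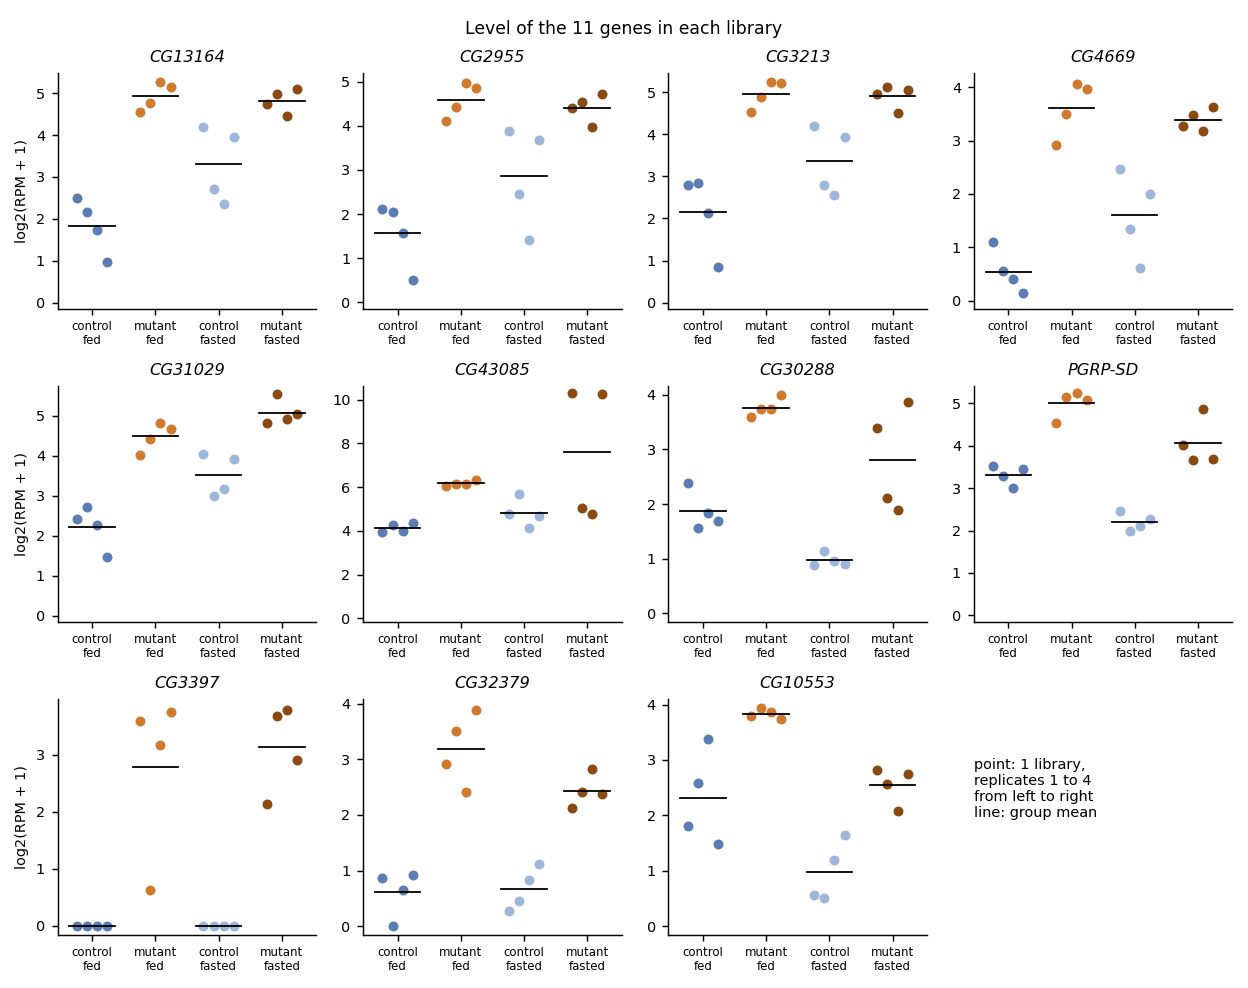
Level of each of the 11 genes as log2(RPM + 1), with 1 point per library in replicate order and a line at the group mean of 4 libraries. Fed mutants lie above fed controls for all 11 genes, whereas the fasted groups of CG43085 overlap and its fasted mutant libraries split into 2 high and 2 low ones.

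The first pattern was shared by CG13164, CG2955, CG3213, CG4669 and CG31029. CG13164 (2R:12302544-12306269, minus strand, 11 exon blocks) stood at 4.65, 3.47, 2.31 and 0.951 RPM in the fed controls and at 22.5, 26.0, 37.3 and 34.7 RPM in the fed mutants. In fasted controls it was measured at 17.2, 5.53, 4.08 and 14.5 RPM, and in fasted mutants at 25.6, 30.7, 21.0 and 33.4 RPM. Every mutant library exceeded every control library on the same diet, but 2 of the fasted controls, replicates 1 and 4, came close to the mutants. The genotype difference was 3.09 ± 0.39 log2 units (SE, n = 4 per group) in fed and 1.52 ± 0.39 in fasted larvae.

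CG2955 (2L:4149279-4151203, plus strand, 1 exon) ran in parallel. Its fed controls were at 3.30, 3.16, 1.99 and 0.422 RPM against 16.3, 20.7, 30.4 and 28.0 RPM in the fed mutants. The fasted controls were at 13.7, 4.48, 1.65 and 11.8 RPM against 20.3, 22.3, 14.7 and 25.4 RPM, so again controls 1 and 4 were the high ones. Its differences were 3.03 ± 0.47 fed and 1.56 ± 0.47 fasted. CG3213 (2L:3517273-3519651, minus strand, 1 exon) was at 6.00, 6.21, 3.40 and 0.792 RPM in fed controls and 22.1, 28.7, 36.8 and 36.5 RPM in fed mutants. Upon fasting it was at 17.3, 5.90, 4.90 and 14.3 RPM in controls and 30.1, 33.9, 22.0 and 32.5 RPM in mutants, and its differences of 2.81 ± 0.42 and 1.55 ± 0.42 were close to those of CG2955.

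CG4669 (3L:5234483-5236631, plus strand) was the lowest of the 5, at 1.14, 0.466, 0.321 and 0.106 RPM in fed controls, the last of these being 2 reads, and at 6.55, 10.3, 15.7 and 14.7 RPM in fed mutants. Fasted controls held 4.49, 1.53, 0.532 and 3.00 RPM and fasted mutants 8.68, 10.1, 8.04 and 11.4 RPM. The differences were 3.06 ± 0.34 fed and 1.78 ± 0.34 fasted. CG4669 lies inside shep, a gene for an RNA-binding protein on the other strand, with which it shares no exonic base, and shep itself differed by 0.09 fed and 0.04 fasted (limma adjusted p = 0.287 and 0.701). CG31029 (3R:30129279-30132395, minus strand) was at 4.38, 5.59, 3.85 and 1.74 RPM in fed controls and at 15.1, 20.5, 27.1 and 24.6 RPM in fed mutants. It was at 15.5, 7.01, 7.92 and 14.1 RPM in fasted controls and at 27.1, 45.4, 29.2 and 32.1 RPM in fasted mutants, giving 2.26 ± 0.29 and 1.55 ± 0.29. Its fasted mutants were above its fed mutants by 0.60, the largest such value of the 5 genes.

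These 5 genes were related to transcripts of the male germ line by a measure the rule did not use. The group mean was subtracted from each library, and the remaining deviations were correlated over the 16 libraries with the mean deviation of 80 measured testis genes, which cover stages from germ cells to sperm. The correlation was 0.98 for CG13164, 0.98 for CG2955, 0.97 for CG3213, 0.88 for CG4669 and 0.87 for CG31029. Correlations among the 5 ran from 0.76 to 0.98. For the other 6 genes the correlation with the testis list ran from -0.24 to 0.27. Over all 10459 genes, 903 (8.63%) correlated above 0.8. All these correlations share the same 16 libraries and are given as a description.

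**Figure D2:**
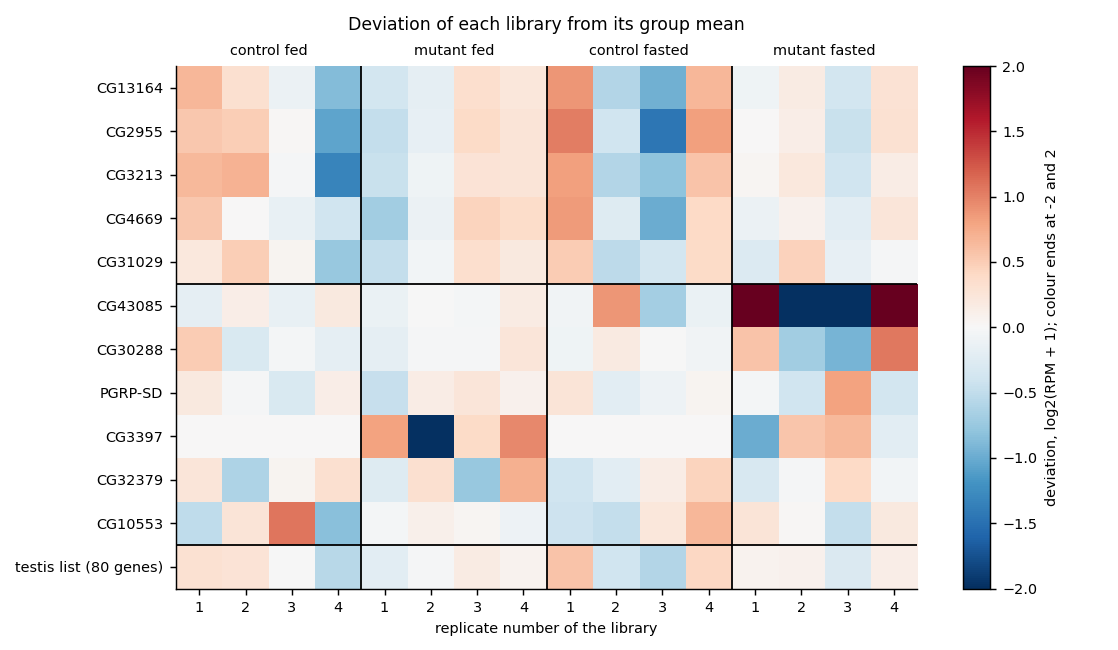
Deviation of each library from the mean of its group in log2(RPM + 1), for the 11 genes and for the mean of 80 testis genes, with libraries in columns by group and replicate number. The upper 5 genes follow the testis list, with controls 4 (fed), 2 and 3 (fasted) low and controls 1 and 4 (fasted) high, whereas CG43085 and CG30288 stand out in fasted mutants 1 and 4.

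Genes most like the 5 in these deviations included well-known sperm genes. CG3213 was closest to betaTub85D, the testis-specific beta-tubulin of the sperm axoneme (0.99), to S-Lap8, a leucyl aminopeptidase of sperm (0.99), and to Mst98Ca, a sperm tail protein (0.99). CG13164 was closest to CG8701 (0.99) and CG2955 to CG3982 (0.99), while eIF4E-5, a translation initiation factor of the male germ line, was also near CG2955 (0.99). CG4669 was closest to CG33286 (0.99). CG31029 had looser company, its nearest gene being CG6752 (0.94). Ppi1, which encodes a protein phosphatase inhibitor, lies 160 bp from CG31029 and was also higher in mutants, by 2.49 ± 0.39 fed and 1.38 ± 0.39 fasted (adjusted p = 8.87e-05 and 0.0110).

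The testis list itself moved with genotype and with single control libraries. Its summed level was 366, 347, 285 and 184 RPM in fed controls and 733, 852, 1010 and 954 RPM in fed mutants. In fasted controls the sum was 738, 336, 281 and 666 RPM, and in fasted mutants it was 954, 983, 718 and 1015 RPM. Fasted control 1 thus lay within the range of the mutants and fasted control 4 just below it, while fasted controls 2 and 3 stayed at the level of fed controls. Of the 80 genes, 71 were called higher and none lower in fed mutants (median difference 1.22), and 55 higher and 1 lower in fasted mutants (median 0.87), against medians of -0.02 and 0.00 over all genes, of which 25.6% were called higher in fed and 23.8% in fasted mutants. In fasted larvae 0 of the 80 reached a difference of 1.5, compared with 32 in fed larvae. Without replicate 2, only 4 of the 80 were called higher in fasted mutants. None of the 80 was at 0 in all libraries of a group, and 51 further genes of the 131 listed were not in the table. Since the authors dropped genes below a minimum count, a weakly expressed gene could enter through the mutants alone. The part of this filter in the counts was not tested. The part of the shift of the testis list in the values of the 5 genes was not tested either.

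Markers of some other tissues also differed with genotype. The 3 measured larval serum protein genes of the fat body were called higher on both diets, with a summed level of 10229 to 31224 RPM in fed controls and 86191 to 105210 RPM in fed mutants. Of 6 haemocyte markers, 3 were called higher in fed and 2 in fasted mutants, and none lower. Of 10 midgut markers, 2 were higher and 1 lower in fed mutants, and 1 higher and 4 lower in fasted ones. The 8 muscle markers had 2 higher in fed mutants and no other call. Among 5 nervous system markers, 1 was higher and 1 lower on each diet. Among 4 salivary gland markers, none was called in fed and 2 were lower in fasted mutants. Over all genes, 25.6% were called higher and 26.0% lower in fed mutants, and 23.8% and 20.9% in fasted ones. The part of these markers in the values of the 11 genes was not tested.

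By stage of sperm development, medians in fed mutants were as follows, and differences between stages were not tested. The 23 measured genes for spermatid structure and chromatin had a median difference of 2.18, with all 23 called higher. The 11 genes of the spermatocyte transcription machinery had a median of 1.11 (10 higher). The 8 germ cell and spermatogonial genes had a median of 0.46. Of these 8, 2 were called higher, a share near the 25.6% of all genes, and none lower. Medians were 1.49 for 8 late spermatid transcripts, 1.32 for 5 sperm axoneme genes and 1.19 for 20 testis paralogues. They were 1.10 for 2 Y-linked fertility genes and 0.45 for 3 meiotic entry genes. In fasted mutants the medians were 1.08 for the spermatid, 0.68 for the spermatocyte and 0.56 for the germ cell genes. The 5 genes had a fed difference between 2.26 and 3.09, and the spermatid group ran from 0.41 (gdl) to 3.32 (S-Lap1). The 8 late spermatid transcripts ran from 0.30 (m-cup) to 2.68 (w-cup), and of these only w-cup lay within the range of the 5 genes. Since the rule asked for a fed difference of at least 1.5, these values do not place the 5 genes at a stage.

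Some transcripts that differ between the sexes also differed with genotype. The RNAs roX1 and roX2 of the male dosage compensation complex were low in all libraries, at 1.16 to 4.95 RPM and 0.355 to 4.31 RPM, although the larvae are stated to be male. In fasted controls roX2 was at 1.85, 0.474, 0.355 and 1.12 RPM, with the same high replicates 1 and 4. It was higher in mutants by 0.93 fed and 0.80 fasted (adjusted p = 0.0035 and 0.0130), and msl-2, which encodes a protein of that complex, by 0.52 and 0.57 (adjusted p = 0.0313 and 0.0249), while roX1 passed the test on neither diet. Yp3, a yolk protein gene of females, fell by 1.24 in fed mutants (0.581 to 6.36 RPM in controls, 0.230 to 0.362 RPM in mutants, adjusted p = 0.0454), and differed by -0.34 in fasted ones (adjusted p = 0.59). The sex of the larvae behind each library was not tested.

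The Erk7 transcript was detected in every library. In fed larvae it was at 0.634 to 3.05 RPM in controls and 5.58 to 10.2 RPM in mutants, a difference of 1.59 ± 0.37 (adjusted p = 0.00235). In fasted larvae the groups overlapped, at 1.83 to 9.73 RPM and 5.14 to 8.03 RPM, with a difference of 0.46 ± 0.37 (adjusted p = 0.334). Since the deletion removes only a few bases of the transcript, its level is no check of the genotype.

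CG43085 and CG30288 formed the second pattern, set by 2 of the fasted mutant libraries. CG43085 (3L:17645486-17646737, minus strand) was even in fed larvae, with 14.7, 18.6, 15.0 and 19.3 RPM in controls and 65.0, 70.8, 69.1 and 80.1 RPM in mutants. In fasted controls it was at 26.1, 51.2, 16.6 and 24.9 RPM, whereas fasted mutants gave 1267, 32.4, 26.0 and 1230 RPM. Mutants 2 and 3 thus lay within the range of the fasted controls, and only mutants 1 and 4 were far above it. The difference was 2.02 ± 1.03 fed and 2.77 ± 1.03 fasted. The fit gives a gene the same SE on both diets, so the spread of the fasted mutants (SD 3.11) also enters the fed one. In fed larvae the SD was 0.20 in controls and 0.12 in mutants. Without fasted mutants 1 and 4 the fasted difference was 0.08, so that the place of CG43085 among the 11 rests on those 2 libraries.

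CG30288 (2R:21519243-21520393, minus strand) was at 4.22, 1.97, 2.57 and 2.22 RPM in fed controls and 11.0, 12.3, 12.4 and 15.0 RPM in fed mutants. Upon fasting it was at 0.846, 1.21, 0.945 and 0.866 RPM in controls and 9.43, 3.34, 2.70 and 13.6 RPM in mutants. Here all fasted mutants stayed above the controls, but mutants 1 and 4 were again the high ones. Its differences were 1.90 ± 0.34 and 1.84 ± 0.34, and the fasted one was 1.03 without those libraries.

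The deviations of CG43085 and CG30288 correlated with each other at 0.88, and they had 6 of their 8 closest genes in common, namely et, CG3117, lectin-24A, CG33461, CG30187 and CG33226. The gene et (eye transformer) encodes a receptor that dampens JAK/STAT signalling, lectin-24A a C-type lectin, and CG33461, CG30187, CG33226 and CG3117 encode predicted serine proteases or relatives of them. TotC and TotA, secreted Turandot peptides of the stress response, showed the same libraries most plainly. TotC was at 484, 0.449, 1.07 and 352 RPM in fasted mutants, against 0.740, 11.3, 3.66 and 1.73 RPM in fasted controls. Tep1, a thioester-containing protein of the immune response, was at 338, 15.6, 19.3 and 425 RPM in fasted mutants. Tep1 also had both genotype differences over 1.5 (1.70 and 3.31) and was left out of the 11 genes because its own difference between fasted and fed mutants was 2.69. Nothing in the labels sets fasted mutants 1 and 4 apart from 2 and 3.

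The remaining 4 genes followed neither of these patterns. CG3397 (3R:11983098-11984541, minus strand) gave no read in any of the 8 control libraries, in which 3 reads are worth at most 0.193 RPM. Since the authors dropped genes below a minimum count, it is in the table only through the mutants. It was at 11.0, 0.556, 8.01 and 12.5 RPM in fed and at 3.40, 11.8, 12.8 and 6.53 RPM in fasted mutants. Fed mutant 2 was the exception, with 11 reads. Taking the largest value of 3 reads in a control library as a bound, the mean of the mutants was at least 41.6-fold higher in fed and at least 48.7-fold higher in fasted larvae. Other aldo-keto reductase genes lie beside it. CG12224, 1036 bp away, was higher in mutants by 1.28 ± 0.18 fed and 1.01 ± 0.18 fasted (adjusted p = 3.28e-05 and 0.00069), while CG18547 differed by 0.05 and -0.06 (adjusted p = 0.756 and 0.71). Of the 8 genes whose deviations were most like those of CG3397, 6 lay on the same arm, 3R, which holds 2597 of the 10305 placed genes. Since CG3397 gave no read in controls, these likenesses rest on the mutant libraries, of which fed mutant 2 deviated most. The 6 genes differed in direction. Ugt86Dd, a UDP-glycosyltransferase gene, was at 34.7, 15.3, 47.3 and 37.7 RPM in fed mutants and 13.4 to 20.3 RPM in fed controls. CG7054, however, differed by -1.03 fed and -0.62 fasted.

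CG32379 (3L:7396355-7398208, plus strand) was at 0.811, 0, 0.578 and 0.898 RPM in fed controls and 6.55, 10.3, 4.34 and 13.8 RPM in fed mutants. In fasted controls it was at 0.211, 0.369, 0.768 and 1.17 RPM and in fasted mutants at 3.35, 4.34, 6.11 and 4.21 RPM. All mutants exceeded all controls, by 2.57 ± 0.29 and 1.77 ± 0.29. Most control libraries held less than 1 RPM of CG32379, so this gene too may be in the table only through the mutants. The gene lies in a row of metallocarboxypeptidase genes that did not move together. CG8564 was higher in mutants by 2.54 fed and 1.30 fasted (adjusted p = 2.40e-05 and 0.00745) and followed the testis list with a correlation of 0.97, whereas CG32379 did not. CG8563, only 342 bp away, fell by 0.90 fed and by 1.47 fasted (adjusted p = 0.0199 and 0.00183). Other genes of the row, CG8562, CG18417 and CG8560, passed the test on neither diet. The gene most like CG32379 was ND-B14.5A (0.88), which differed by -0.25 fed and -0.02 fasted. Further down came br, an early gene of the response to the moulting hormone ecdysone (0.80). It was at 104 to 188 RPM in fed mutants and 50.7 to 68.9 RPM in fed controls. Next to br in likeness, Atf3 (0.79) differed by -0.10 and -0.29. A link of CG32379 to ecdysone was not tested.

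PGRP-SD (3L:7651180-7651900, plus strand, 1 exon) was at 10.4, 8.85, 7.06 and 9.98 RPM in fed controls and 22.4, 34.8, 37.0 and 33.2 RPM in fed mutants. Upon fasting it was at 4.55, 3.00, 3.31 and 3.82 RPM in controls and 15.1, 11.6, 28.2 and 11.9 RPM in mutants. The groups were apart on both diets, with differences of 1.69 ± 0.23 and 1.85 ± 0.23, and fasted mutant 3 was the highest of its group. The same library had the highest level of PGRP-SB1, an amidase that degrades peptidoglycan, at 261 RPM against 4.98 to 17.8 RPM in the other fasted mutants, and of CG2444, at 39.2 RPM against 10.6 to 13.2 RPM. PGRP-SD shares 35 exonic bases with CG7492 on the other strand and lies within CG32373.

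The other peptidoglycan recognition genes differed among themselves. Of 9 measured, 4 were called higher in fed mutants and none lower, and in fasted mutants 2 were higher and 3 lower. Over all genes 25.6% were called higher in fed mutants, and 23.8% higher and 20.9% lower in fasted ones. PGRP-SA, which detects peptidoglycan for the Toll pathway, was higher by 1.24 ± 0.11 fed and 0.69 ± 0.11 fasted (adjusted p = 7.19e-07 and 0.000386). PGRP-SC2, an amidase, was higher by 2.47 ± 0.28 fed and 0.91 ± 0.28 fasted (adjusted p = 6.31e-06 and 0.0182). The signalling receptor PGRP-LC differed by 0.02 fed and fell by 0.34 fasted (adjusted p = 0.867 and 0.00632).

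CG10553 (3R:25316461-25318111, minus strand) had the smallest fed difference of the 11. It was at 2.49, 4.97, 9.44 and 1.80 RPM in fed controls and 12.8, 14.2, 13.5 and 12.3 RPM in fed mutants, then at 0.476, 0.422, 1.30 and 2.14 RPM in fasted controls and 6.04, 4.94, 3.21 and 5.75 RPM in fasted mutants. Fed mutants were tight and fed controls spread, and the differences were 1.52 ± 0.35 and 1.57 ± 0.35. It sits among related kinase-like genes. Of its 14 neighbours within 20 kb, 1 was called higher and 6 lower in fed mutants, and 1 higher and 6 lower in fasted mutants. The nearest of these, CG10559 and CG10560, lay 345 and 439 bp away, and CG10560 was higher in fasted mutants by 1.16 ± 0.21 (adjusted p = 0.000793), but differed by 0.21 ± 0.21 in fed ones (adjusted p = 0.428). Over the surroundings of all 11 genes, 73 neighbours were measured, of which 15 were called higher (20.5%) and 17 lower (23.3%) in fed mutants, where 25.6% and 26.0% of all genes were. In fasted mutants 18 were higher (24.7%) and 21 lower (28.8%), against 23.8% and 20.9% of all genes.

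Across the 11 genes, responses to fasting within a genotype were bounded by the rule but differed in sign. The testis-correlated genes were higher in fasted than in fed controls, by 1.06 to 1.46, and differed in mutants by -0.22 to 0.60. For PGRP-SD, CG30288 and CG10553 the fasted minus fed difference was negative in both genotypes, at -0.90 to -1.33 in controls and -0.95 to -1.28 in mutants. Of the 11 genes, 5 were called higher and 3 lower in fasted controls, where 69.7% of all genes were called in either direction. Without replicate 4, 1 of the 5 was still called, and without replicate 1, 3 were. In mutants none was called higher and 4 lower, against 48.7% of all genes in either direction, and without replicate 2 only 1 was called lower. The interaction of genotype and fasting was called for 1 of the 11, CG13164 (-1.57 ± 0.55), and for 31.9% of all genes. With any 1 replicate number left out, it was not called for CG13164. On the recovered reads, edgeR and DESeq2 called the interaction for 3 of the 11.

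For the genotype comparisons, which chose the genes, 10 of the 11 were called higher in fed mutants, where 25.6% of all genes were called higher. The exception was CG43085, whose SE is shared with its widely spread fasted mutants, and DESeq2 called all 11. In fasted mutants 11 were called higher, where 23.8% of all genes were, and 8 were without replicate 2. Every fed mutant library was above every fed control library for 11 genes and for 25.3% of all genes, and the same held in fasted larvae for 10 of the 11, without CG43085, and for 16.3% of all genes. These counts follow from the selection.

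**Figure D3:**
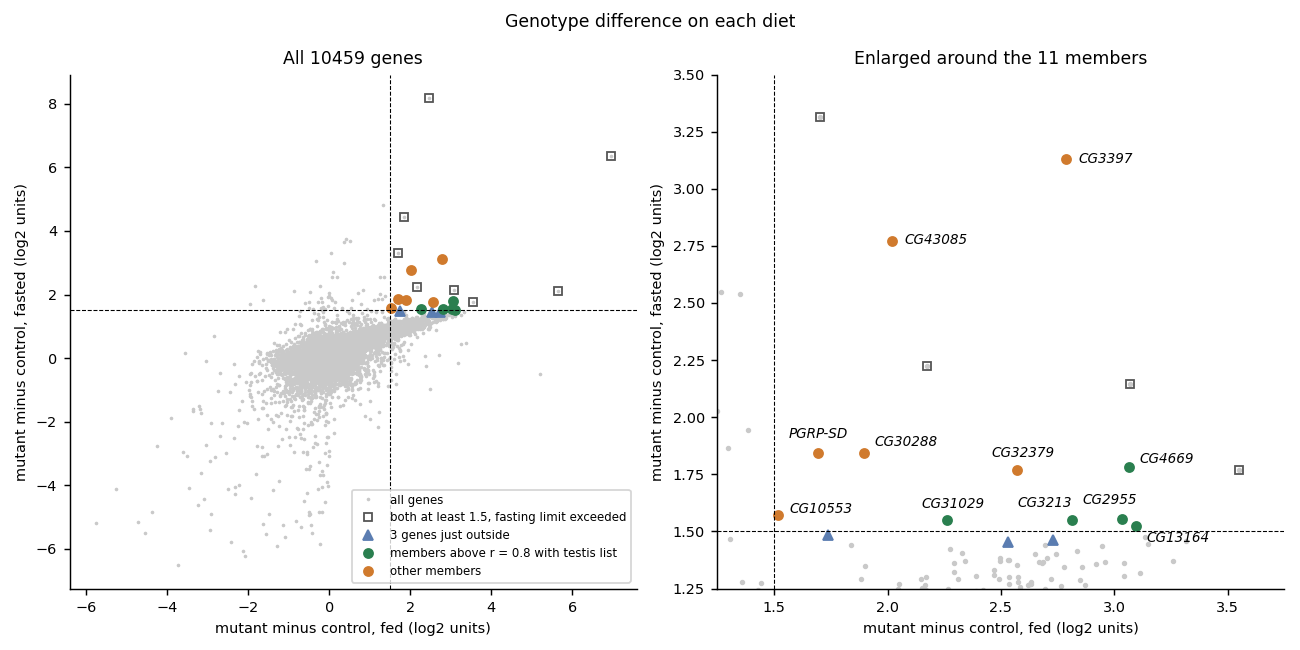
Difference between mutant and control means in log2(RPM + 1) units, in fed larvae (x axis) and fasted larvae (y axis), for all 10459 genes and enlarged around the 11 members, with dashed lines at 1.5. The 5 testis-correlated genes lie at the tip of a band of genes with large fed and smaller fasted differences, between 1.52 and 1.78 on the y axis, and CG3397 and CG43085 lie above them at 3.13 and 2.77.

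The fasted comparison set the limit for most candidates. In fed larvae 520 genes had a difference of at least 1.5, and 409 of these (78.7%) correlated above 0.8 with the testis list. In fasted larvae 68 genes reached 1.5, of which 5 (7.35%) did, and these 5 are the testis-correlated genes described above. Both differences were reached by 19 genes, and 8 of them were set aside because fasting moved them by more than 1.5. These were the larval serum protein genes Lsp1alpha, Lsp1beta and Lsp1gamma, the cuticle protein gene Lcp2, Tep1, CG10081, CG7320 and CG32249. Just inside the limit lay CG10553 with a smaller difference of 1.52, CG13164 with 1.52 and CG31029 with 1.55. Just outside it were CG7386 with 1.49, CG8565 with 1.46 and CG12860 with 1.46. CG8565 is X-linked, and its values of 24.8, 9.22, 7.62 and 25.3 RPM in fasted controls show the same high replicates 1 and 4.

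None of the 11 genes was X-linked, although 1648 of 10305 genes placed on the chromosomes (16.0%) are. X-linked genes were not rare among candidates on a single diet. They made up 75 of 514 placed genes (14.6%) with a fed difference of at least 1.5, and 11 of 67 (16.4%) with a fasted one. Of the 19 genes that reached both, 1 was X-linked, Lsp1alpha, which failed on its response to fasting. At a threshold of 1 in place of 1.5, 289 genes met the rule, and 40 of the 284 placed (14.1%) were X-linked. Median differences of all X-linked and all autosomal genes were -0.07 and -0.00 in fed and -0.04 and 0.01 in fasted larvae. In the set at a threshold of 1, X-linked and autosomal genes had nearly equal medians, 2.01 and 2.01 in fed and 1.16 and 1.14 in fasted larvae, and 90.0% of the X-linked and 84.0% of the autosomal ones correlated above 0.8 with the testis list. With 11 genes, the absence of X-linked ones is a count at this threshold and not a measured difference between chromosomes.

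The number of genes that met the rule depended on single fasted libraries. Without fasted control 1 it was 69, of which 9 were X-linked, and without fasted control 4 it was 50, of which 4 were. Without fasted control 2 or 3 it was 7 or 6, and CG3213, CG2955, CG13164 and CG31029 were then lost. Leaving out fasted controls 1 and 4 together gave 274 genes, with 47 X-linked (17.4% of those placed) and all 11 members retained, and the fasted differences of the testis-correlated genes then ran from 2.00 to 2.48. Without fasted mutant 3 the rule took 28 genes, and with any 1 fed library left out it took 10 to 12. PGRP-SD and CG3397 met the rule in 31 of 33 alternative settings, CG32379 in 30, and CG10553 in 15.

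**Figure D4:**
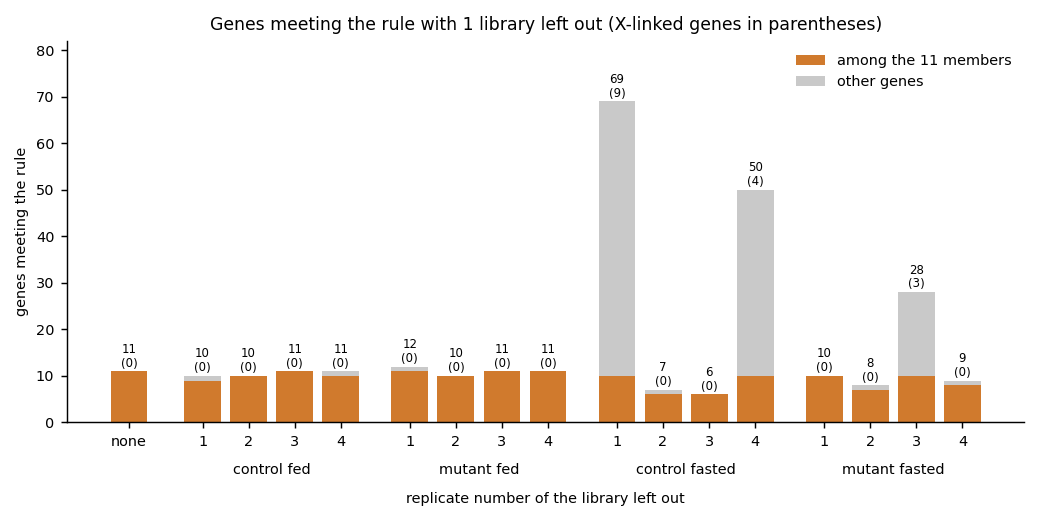
Number of genes that met the rule with all libraries and with each library left out, by group and replicate number; orange marks members among the 11, grey other genes, and the number of X-linked genes is in parentheses. The count stays between 10 and 12 without a fed library and between 6 and 69 without a fasted library.

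The rule was also applied with 1 replicate number left out, and the genes it took were then read in the replicate it had not used. Each reading compares 1 library of each group, and libraries that share a number were not taken as pairs. Genes that vary together, such as the testis-correlated ones, are not separate results, so the percentages are a description. With replicate 1 left out, 62 genes were taken, 10 of them among the 11, and 60 of the 62 were higher in the mutant on both diets in replicate 1 (96.8%, against 33.5% of all genes). With replicate 4 left out, 30 of 33 were higher (90.9%, against 30.2%), the exceptions being the antimicrobial peptide genes AttA, DptB and Listericin. With replicate 2 left out it was 5 of 6, and with replicate 3 left out 6 of 6. The fasted difference in the unused replicate was often smaller than 1.5, with a median of 0.48 for the 62 genes and of 0.96 for the 33 genes.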

How the data were processed

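RNA-seq libraries of whole male larvae (16, with 4 per group) were analysed. The authors trimmed reads with Trimmomatic, mapped them with TopHat 2.1.0 to FlyBase release 6, used HTSeq to count them by strand over exons, and dropped genes below a minimum count. The deposited values per library are a linear signal, RPM, which is the read count scaled to the TMM-adjusted library size, in which 100% of values were whole multiples of 1 read (tolerance 0.0001 reads). The deposited columns of log2 fold changes, t values and p-values were not used.

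Here log2(RPM + 1) was fitted with limma 3.58.1 in R 4.3.3 as 4 group means over 16 libraries, with Benjamini-Hochberg adjustment over 10459 genes, and genes were called at an adjusted p under 0.05. edgeR 4.0.16 (quasi-likelihood test) and DESeq2 1.42.0 were run on the recovered reads as alternatives. The fit was tested on simulated data. Labels do not say that libraries come from separate cultures, so p-values measure the spread between libraries. Replicates differed by more than counting error (chi-square per degree of freedom 12.2 to 51.1 in 24 pairs).

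Members and lists were chosen with earlier results of these data known. Named genes were members by size and level, the 3 genes on either side of the threshold, Erk7, roX1 and roX2. Neighbours within 20 kb, genes of like deviation and genes of the lists were named after their values were seen. Positions are from a release 6 annotation that holds 10305 of the genes. Promoter motifs were not analysed here.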

Additional observations from a re-analysis of the deposited data

Results flagged for a closer look

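Among the 60 groups of 4 libraries examined for a single distant library, 1 was found, and chance alone gives such a library in about 1 group in 20. It was the Erk7 transcript in fasted mutant 3, at 5.14 RPM against 7.59 to 8.03 RPM in the other 3 fasted mutants, and the summed testis list was also lowest in that library of its group (718 RPM).

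Of 14 interactions examined, 1 was called, that of CG13164, whose genotype difference was 1.57 log2 units smaller in fasted than in fed larvae (interaction -1.57, limma adjusted p = 0.0415). The rule that chose this gene used both differences. The interaction was no longer called with the replicate number as a block, with quantile normalization, or with any 1 replicate number left out.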

How the results depend on the processing

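Directions of the 11 genes' differences reversed under none of the settings tried, but their number and that of X-linked genes moved with the scale. With a pseudocount of 0.1 the rule took 144 genes (21 X-linked, 6 of the 11 members), with 0.5 it took 27 (3 X-linked, 9 members) and with 5 it took 1. On log2 CPM of the recovered reads it took 141 (19 X-linked). Quantile normalization gave 11 (1 X-linked, 10 members), a table without its lowest 25 percent of genes 6, group medians 15 (2 X-linked), and no limit on fasting 19 (1 X-linked). With the threshold at 1 there were 289 (40 X-linked), and with the threshold at 2 there were 2. Leaving out single libraries or replicate numbers gave 6 to 69 genes, of which 0 to 9 were X-linked, without fasted controls 1 and 4 there were 274 (47 X-linked), and without fasted mutants 1 and 4 there were 5. Settings that left out single libraries or pairs of them were chosen after seeing the data. Calls in fasted mutants against fasted controls numbered 4678, and 2129 to 4441 without 1 replicate number; those of the interaction numbered 3338, and 1807 to 3145. Of the 80 testis genes 55 were called higher in fasted mutants, 35 with a pseudocount of 0.1 and 4 to 63 without 1 replicate number, 4 being the value without replicate 2. edgeR called 5411 genes in fed and 4305 in fasted mutants against controls, DESeq2 5483 and 4501. The 5 testis-correlated genes stayed above 0.8 in all 6 alternatives of that measure, the lowest value being 0.81, and the highest value of the other 6 genes was 0.67, without replicate 1.

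Deviations of libraries with the same replicate number correlated at -0.32 to 0.29, above 0.1 in 6 of 24 pairs, so the numbers were not taken as pairs. With the replicate block 5366 genes were called in fed and 4535 in fasted mutants against controls, and 3241 for the interaction, and among the 11 genes the block changed no call apart from the interaction of CG13164. At these depths 3 reads are worth up to 0.193 RPM, and among the members CG3397 lay below this in every control.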
